A study of Mus musculus with 18 samples.

Results

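Imprinted growth genes were followed on Agilent one-color expression arrays of mouse embryonic stem (ES) cells and of the differentiated (ED) cells derived from them. The set comprised 10 genes, Igf2, H19, Igf2r, Peg3, Mest, Dlk1, Grb10, Plagl1, Peg10 and Snrpn, of which 9 had a probe whose RefSeq accession led to the gene symbol, among 34289 gene names on the array. H19 has no value here, since the RefSeq table used tied no accession of the array to its symbol, which does not show that the array lacks a probe for it. The set was chosen from the fall of Igf2 between unirradiated ES and ED cells, so that the ED against ES values of every member are given as a description, without a test.

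The 18 arrays formed 6 groups of 3 replicates. ES cells were grown without a feeder layer on gelatin in medium with leukemia inhibitory factor (LIF), the cytokine that holds mouse ES cells in the undifferentiated state. By the sample labels, ED cells came from the same cells by LIF withdrawal for 1 week or until the stem cell markers had disappeared. The study's methods give removal of LIF and beta-mercaptoethanol, with a shorter minimum time. This undirected differentiation yields no single defined cell type. Both cell types were left unirradiated (ES, ED) or received 10 Gy of ionizing radiation (IR). RNA of irradiated cells was taken after 15 min (ESRE, EDRE) or 4 h (ESRL, EDRL). Nothing in the labels states whether replicates were separate cultures, so p-values measure the spread between these samples only.

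Imprinted genes are transcribed mainly from the allele of one parent, according to DNA methylation laid down in the egg or the sperm. Igf2, Peg3, Mest, Dlk1, Plagl1, Peg10 and Snrpn are paternally expressed, whereas H19 and Igf2r are maternally expressed and Grb10 is maternally expressed in most embryonic tissues. Many of them set the growth of the fetus and placenta, with Igf2 as a growth factor and Igf2r and Grb10 as brakes on growth. An array probe reads the RNA of both alleles together, so nothing here bears on which allele was used.

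All values below are log2 of the signal relative to the 75th percentile of the same array, where 0 is that percentile. They compare one probe across arrays and not one gene with another. A member was called where the adjusted p of the limma fit over all tested probes was under 0.05 and the log2 difference over 1. The array signal at the 75th percentile ran from 2806 to 4268 on 15 arrays, while EDRE replicates 2 and 3 reached 875 and 1155 and ESRL replicate 1 reached 1952. On the dim EDRE arrays 49.5% and 55.5% of the probes stood well above background, and their outlier spots came to 24.4% and 23.8%. The ESRL array was scanned alone.

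The stem cell identity of the groups followed their labels. Summed over 8 pluripotency markers, the signal relative to the 75th percentile ranged from 459 to 704 on ES, ESRE and ESRL arrays. It ranged from 5.01 to 11.7 on ED, EDRE and EDRL arrays, where between 1 and 5 of the 8 markers were not well above background. What remained there was mostly Sox2, well above background on every such array, with a mean log2 of 2.32 in ED against 4.68 in ES. All 7 tested pluripotency markers, Sox2 among them, were called lower in EDRL against ESRL. The sum over 8 fibroblast and mesenchymal markers ran the other way, from 29.1 to 38.9 on ES, ESRE and ESRL arrays and from 422 to 560 on ED, EDRE and EDRL arrays. Thy1 went against this sum, being well above background on no array of ED cells and at least 396-fold lower in EDRL than in ESRL (limma, adjusted p = 6.69e-08). The sum over 6 trophoblast markers was 18.4 to 36.3 in the undifferentiated groups and 0.198 to 0.354 in the differentiated groups, where 1 to 5 of the 6 were not well above background. Sums over 8 extraembryonic endoderm markers (23.6 to 47.2 against 30.4 to 38.4) and over 6 neural markers (4.98 to 7.35 against 6.26 to 14.9) overlapped between undifferentiated and differentiated arrays. The endoderm sum was carried mostly by Sparc in ED cells. In EDRL against ESRL, 4 of 7 tested endoderm markers (Sox17, Foxa2, Afp and Lama1) were called lower, against 24.6% of tested genes. Sparc was called higher (1.19), against 24.3% of tested genes, and Gata4 and Gata6 were not called. Of the 6 neural markers, Map2 was called higher in EDRL against ESRL (2.13), and Neurod1 (-6.75) and Pax6 (-1.65) were called lower. The part of such shifts in cell type in the results below was not tested. In these bulk RNA samples, fewer cells of a type and less RNA per cell cannot be told apart.

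Most members were far lower in ED cells than in ES cells. In the unirradiated groups, 6 of the 9 measured members lost over 1 log2 unit from ES to ED (29.3% of all 26139 genes), namely Igf2, Peg10, Mest, Dlk1, Peg3 and Snrpn. Grb10 alone was higher by over 1 (15.8% of all genes), and Igf2r and Plagl1 lay within 1. This contrast chose the set, so nothing is read from these counts.

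The same cell types were compared on arrays outside the unirradiated contrast that chose the set, 15 min and 4 h after IR. Since the cell types are those of that contrast, a fall of Igf2 here is no independent check of the choice. In EDRE against ESRE, 5 of 8 tested members fell, against 27.6% of 22184 tested genes, and 1 rose, against 18.3%. In EDRL against ESRL, 6 of 9 members fell, against 24.6% of 23982 tested genes, and 1 rose, against 24.3%. Members dim in ED cells entered these tests through their signal in undifferentiated cells. Neither their counts nor their p-values, here and below, support anything by themselves. Of the members that fell, this holds for Igf2, Mest, Dlk1 and Snrpn, not well above background on every EDRE array. It also holds for Peg10 and Snrpn, not well above background on every EDRL array. With signal required on every array of both groups, 1 of 4 tested members fell in EDRE against ESRE (Peg3) and 4 of 7 in EDRL against ESRL. Setting each array to its median instead of its 75th percentile moved the median of all genes from -0.18 and 0.08 to 0.59 and 0.56, and the share of calls that were higher from 39.9% to 67% and from 49.7% to 66%. On that scale Igf2r and Plagl1 were also called higher at both times.

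**Figure D1:**
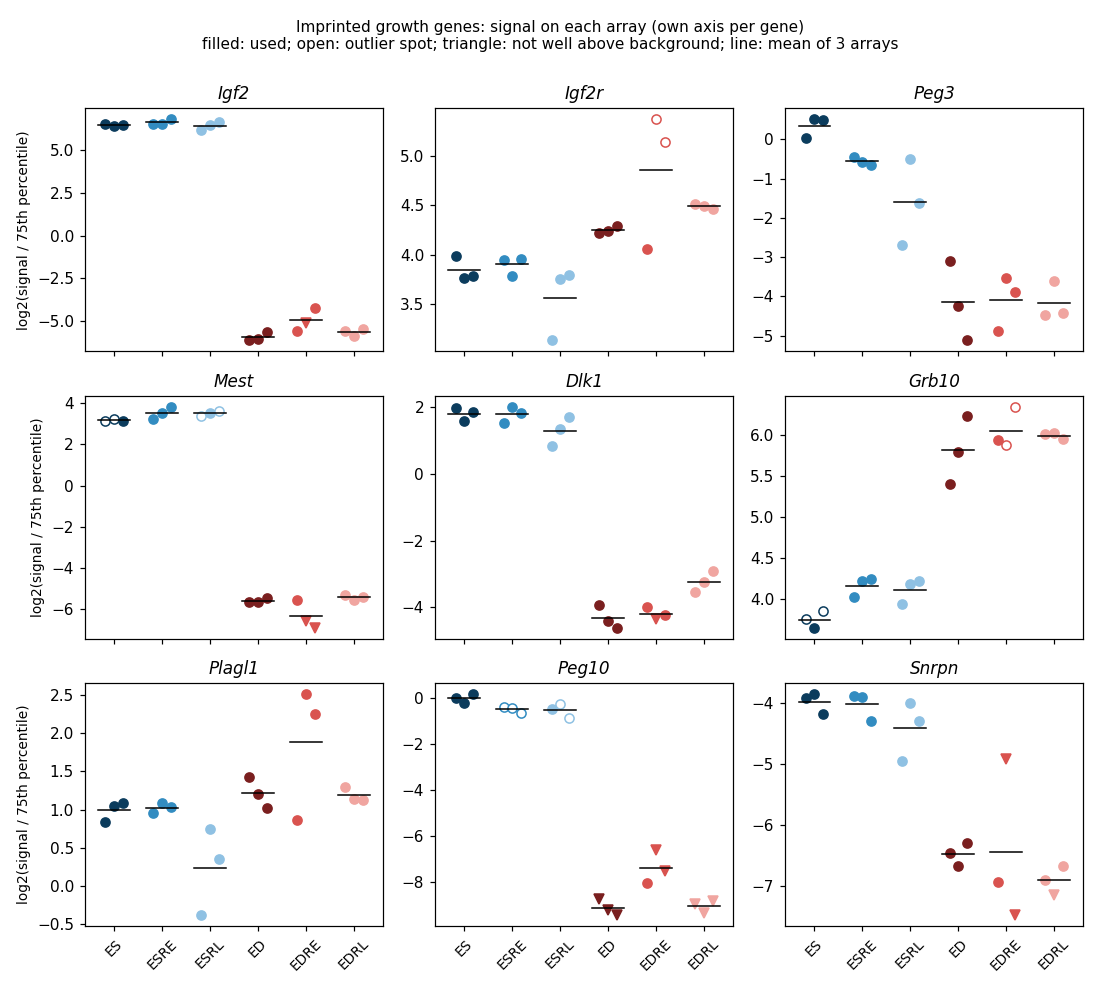
Signal of the 9 measured genes on each of the 18 arrays, in log2 relative to the array's 75th percentile, with 1 panel and 1 vertical axis per gene. Points are arrays in replicate order, open points are outlier spots left out of the fit, triangles are spots not well above background and lines are means of all 3 arrays. Igf2 sits between 6.16 and 6.79 on every array of undifferentiated cells and between -6.13 and -4.24 on every array of ED cells.

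Igf2 encodes insulin-like growth factor 2, the main fetal growth factor of the family. Its main probe read 6.52, 6.40 and 6.49 in ES, 6.53, 6.53 and 6.79 in ESRE, and 6.16, 6.48 and 6.62 in ESRL. The same probe read -6.13, -6.04 and -5.64 in ED, -5.55, -5.10 and -4.24 in EDRE, and -5.58, -5.87 and -5.47 in EDRL. The undifferentiated and differentiated groups lay over 10 log2 units apart with no overlap. EDRE replicate 2 was not well above background. Igf2 was 11.58 ± 0.26 (SE, n = 3) log2 units lower in EDRE than in ESRE (limma, adjusted p = 7.03e-14) and 12.06 ± 0.26 lower in EDRL than in ESRL (adjusted p = 8.71e-14). The description in the unirradiated groups was a difference of -12.41. The other Igf2 probes gave -13.19 and -12.74 in EDRE against ESRE. Each was well above background on 1 of 3 EDRE arrays, so that these sizes are uncertain. In EDRL against ESRL the other probes gave -12.22 and -12.51. The 3 ED arrays shared a scan time with replicate 3 of ESRE, and against this array alone the difference in Igf2 was -12.73.

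Igf2r and Grb10 act against growth, Igf2r as the receptor that carries IGF2 to the lysosome and Grb10 as an adaptor that dampens insulin and IGF receptor signaling. Grb10 was the member that rose in ED cells. It read 3.76, 3.65 and 3.85 in ES, where replicates 1 and 3 were outlier spots, and 5.40, 5.79 and 6.23 in ED. It read 4.03, 4.22 and 4.24 in ESRE and 3.94, 4.18 and 4.22 in ESRL, against 6.01, 6.02 and 5.95 in EDRL. In EDRE only replicate 1, at 5.94, entered the fit, since the spots of replicates 2 and 3, at 5.88 and 6.34, were outliers. No array of ED cells overlapped with one of undifferentiated cells. Grb10 was 1.88 ± 0.20 higher in EDRL than in ESRL (limma, adjusted p = 1.09e-05) and 1.78 ± 0.28 higher in EDRE than in ESRE (adjusted p = 2.63e-04), the latter with 1 EDRE array. In the unirradiated groups the difference was 2.15, with 1 ES array in the fit, and 2.05 with the outlier spots kept.

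Igf2r stayed within the limit on size. It read 3.99, 3.76 and 3.78 in ES and 4.22, 4.24 and 4.29 in ED. Its values were 3.13, 3.75 and 3.79 in ESRL and 4.51, 4.49 and 4.46 in EDRL, so that neither pair of groups overlapped. The difference of 0.93 ± 0.17 in EDRL against ESRL passed the adjusted p (limma, adjusted p = 4.14e-04) but not the limit on size. In ESRE it read 3.95, 3.78 and 3.96, and in EDRE 4.06 on replicate 1, with outlier spots at 5.37 and 5.14 on the dim replicates 2 and 3. The difference in EDRE against ESRE was 0.16 ± 0.24 (adjusted p = 0.593) on replicate 1 alone.

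Dlk1, Peg3 and Plagl1 are regulators of growth and differentiation. Dlk1 encodes a transmembrane and secreted relative of the Notch ligands that holds back adipocyte differentiation. It read 1.96, 1.58 and 1.84 in ES, 1.5, 2.0 and 1.82 in ESRE, and 0.82, 1.34 and 1.70 in ESRL. In differentiated cells it read -3.93, -4.42 and -4.61 in ED, -3.98, -4.34 and -4.24 in EDRE, and -3.55, -3.24 and -2.90 in EDRL. The EDRL arrays were the highest of the differentiated ones and still lay below every undifferentiated array. EDRE replicate 2 was not well above background. Dlk1 was 5.96 ± 0.25 lower in EDRE than in ESRE (limma, adjusted p = 3.22e-11) and 4.51 ± 0.25 lower in EDRL than in ESRL (adjusted p = 6.09e-10). In the unirradiated groups the difference was -6.12.

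Peg3 encodes a large zinc finger protein with a role in maternal behavior and growth. Its replicates were widely spread. It read 0.03, 0.51 and 0.49 in ES, -0.45, -0.58 and -0.66 in ESRE, and -2.69, -0.50 and -1.61 in ESRL. In differentiated cells it read -3.09, -4.25 and -5.12 in ED, -4.89, -3.54 and -3.88 in EDRE, and -4.48, -3.61 and -4.41 in EDRL. The lowest undifferentiated array, replicate 1 of ESRL, was still above the highest differentiated array, replicate 1 of ED. Peg3 was 3.54 ± 0.54 lower in EDRE than in ESRE (limma, adjusted p = 4.72e-05) and 2.57 ± 0.54 lower in EDRL than in ESRL (adjusted p = 7.90e-04), and -4.50 in the unirradiated description. With scan time as a random block, the latter difference was -2.04 and no longer passed (adjusted p = 0.0786).

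Plagl1, a zinc finger transcription factor that restrains proliferation, also stayed within the limit on size. It read 0.84, 1.05 and 1.09 in ES and 1.42, 1.21 and 1.02 in ED, and these groups overlapped. It read -0.38, 0.74 and 0.36 in ESRL and 1.30, 1.14 and 1.12 in EDRL, apart from each other, with replicate 1 of ESRL lowest. In EDRL against ESRL the difference was 0.94 ± 0.34 (limma, adjusted p = 0.0274), below the limit on size. In ESRE it read 0.95, 1.08 and 1.04 and in EDRE 0.87, 2.51 and 2.25, where the dim replicates 2 and 3 were highest. In EDRE against ESRE the difference was 0.85 ± 0.34 (adjusted p = 0.0459), and without the dim replicates 2 and 3 of EDRE and replicate 1 of ESRL it turned to -0.15 (adjusted p = 0.551).

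Mest, Peg10 and Snrpn all fell in ED cells. Mest encodes an endoplasmic reticulum protein of the hydrolase fold family whose loss reduces embryonic growth. It read 3.15, 3.23 and 3.16 in ES, where replicates 1 and 2 were outlier spots, and -5.63, -5.67 and -5.47 in ED. It read 3.23, 3.55 and 3.83 in ESRE and -5.54, -6.59 and -6.90 in EDRE, where replicates 2 and 3 were not well above background and replicate 2 sat at the lowest signal of its array. In ESRL it read 3.39, 3.53 and 3.61, with replicates 1 and 3 left out as outliers, and in EDRL -5.32, -5.54 and -5.43. The groups were separated on every array. Mest was 8.96 ± 0.43 lower in EDRL than in ESRL (limma, adjusted p = 1.14e-08), with 1 ESRL array. The fitted difference in EDRE against ESRE was -9.88 ± 0.30 (adjusted p = 2.79e-10), with signal well above background on 1 of 3 EDRE arrays, so that its size is uncertain. In the unirradiated groups the difference was -8.74, with 1 ES array in the fit.

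Peg10 is derived from a retrotransposon and is required for the placenta. It read 0.00, -0.22 and 0.15 in ES, and -0.50, -0.26 and -0.90 in ESRL, where replicates 2 and 3 were outliers. In ED it read -8.73, -9.23 and -9.43 and in EDRL -8.94, -9.35 and -8.82, not well above background on any of these arrays. A fold against such a group is given as a bound. It is set from the lowest signal among the probes well above background on each dim array. For the other group the bound takes the mean of all its arrays, outlier spots kept. An adjusted p beside a bound, for any gene named here, belongs to the fitted difference and not to the bound. Such genes entered the test through the brighter group alone, so that this p supports nothing by itself. By its bound Peg10 was at least 177-fold lower in ED than in ES, and at least 123-fold lower in EDRL than in ESRL. Only 1 ESRL array entered the fit of the latter difference. All 3 ESRE spots were outliers, at -0.39, -0.47 and -0.67, so that EDRE against ESRE was not tested. The EDRE spots read -8.04, -6.59 and -7.50, and the value of -6.59 was the lowest signal of its array.

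Snrpn encodes a spliceosomal protein and shares its transcripts with Snurf, so that its probes cannot separate them. It was a dim gene in both cell types. The main probe read -3.91, -3.85 and -4.18 in ES and -6.45, -6.67 and -6.29 in ED, a difference of -2.49. It read -3.88, -3.89 and -4.29 in ESRE, -6.92, -4.92 and -7.47 in EDRE, -4.94, -4.00 and -4.29 in ESRL, and -6.90, -7.14 and -6.66 in EDRL. EDRE was the most scattered of these groups, with replicates 2 and 3 not well above background, yet it lay below every ESRE array. Snrpn was 2.49 ± 0.46 lower in EDRL than in ESRL (limma, adjusted p = 2.78e-04), with 2 of 3 EDRL arrays well above background, and its other probes gave -2.52 and -2.47. The fitted difference in EDRE against ESRE was -2.42 ± 0.46 (adjusted p = 3.81e-04), and -3.09 and -2.83 on the other probes, but only 1 of 3 EDRE arrays was well above background on the main probe, so that its size is uncertain. The call in EDRE against ESRE was lost with normexp background correction, where the difference was -0.10 (adjusted p = 0.867). With scan time as a random block the difference in EDRL against ESRL was -2.10 (adjusted p = 0.059).

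**Figure D2:**
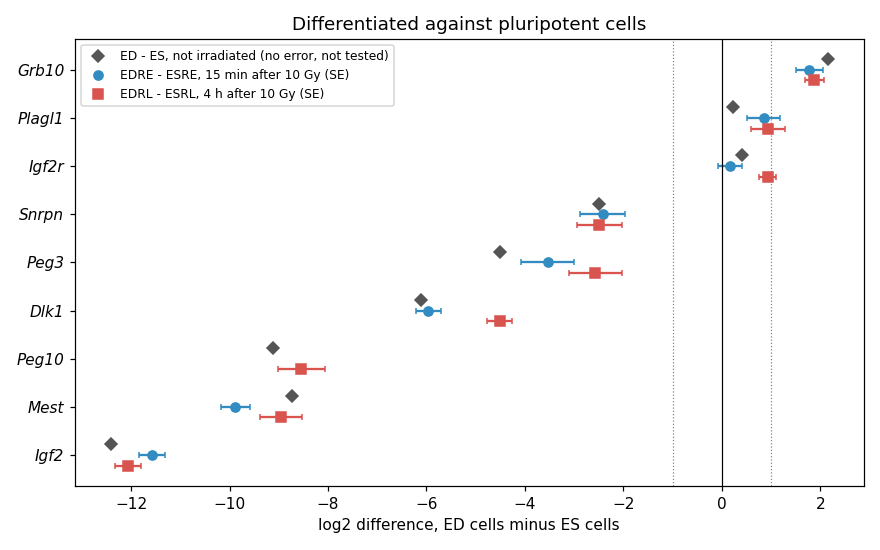
Difference between ED and ES cells for each gene, in log2 units on the horizontal axis, unirradiated (diamonds, no error and no test) and 15 min (circles) or 4 h (squares) after 10 Gy, with bars for 1 SE and dotted lines at the limit of 1 on size. Igf2 lies lowest, at -12.41, -11.58 and -12.06, and Grb10 highest, at 2.15, 1.78 and 1.88. Peg10 has no 15 min value, and its other points are fitted differences with no ED or EDRL array well above background.

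Few members were called after radiation. Of 8 tested members, 0 were called in ESRE against ES, against 0.445% of 25415 genes, and 1 of 9 was called in ESRL against ES, against 7.37%. In ED cells 0 of 8 were called in EDRE against ED, against 4.84%, and 1 of 8 in EDRL against ED, against 1.6%. At an unadjusted p under 0.05, limma gave 0 of the 8 in ESRE against ES and 2 in EDRE against ED (Igf2 and Mest), and the methods' t-test gave 1 and 0 of the 6 members it could test. Comparisons of one cell type share its unirradiated arrays, so that the early and late values are not independent. With scan time as a random block, the genes called over the whole array went from 113 to 0 in ESRE against ES, from 1879 to 38 in ESRL against ES, from 1081 to 1 in EDRE against ED and from 371 to 71 in EDRL against ED. The split between higher and lower calls over all genes also moved with the scaling, from 8.67% higher in ESRL against ES to 34% with each array set to its median, and from 42.1% to 71.3% in EDRE against ED.

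Peg3 was the member called in ES cells. Its mean moved from 0.34 ± 0.27 (SD, n = 3) in ES to -0.56 ± 0.11 in ESRE and -1.60 ± 1.10 in ESRL. All ESRE and ESRL arrays lay below all ES arrays, and the ESRL arrays were spread over more than 2 log2 units. The difference was -1.94 ± 0.54 in ESRL against ES (limma, adjusted p = 0.0388) and -0.91 ± 0.54 in ESRE against ES (adjusted p = 0.699). Without replicate 1 of ESRL, the dim array that was scanned alone, the former was -1.40 (adjusted p = 0.166), and the call was lost in 5 of the 6 fits that left out 1 array. With scan time as a random block the adjusted p was 0.79. On arrays of a single scan time, replicates 2 and 3 of ESRL averaged 0.54 below replicates 1 and 2 of ESRE. In ED cells Peg3 differed by 0.05 and -0.01 at the 2 times, and the difference between the cell types at 4 h was not called (1.93 ± 0.77, adjusted p = 0.249).

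Dlk1 was the member called in ED cells. The 3 EDRL arrays, at -3.55, -3.24 and -2.90, all lay above the 3 ED arrays, of which replicate 1 was highest at -3.93. The difference was 1.10 ± 0.25 in EDRL against ED (limma, adjusted p = 0.0293) and 0.14 ± 0.25 in EDRE against ED (adjusted p = 0.798). In ES cells Dlk1 differed by -0.51 ± 0.25 in ESRL against ES (adjusted p = 0.225). The change at 4 h was 1.61 ± 0.35 more positive in ED than in ES cells (interaction, adjusted p = 0.0443), the 1 member of 9 called at 4 h, against 1.11% of genes. At 15 min limma called 0 of 8 interactions, against 1.98% of genes. An unadjusted p under 0.05 was found for 1 of 8, against 4722 of 25670 genes. The EDRL and ED arrays were scanned at different times, and with scan time as a random block the adjusted p was 0.889 in EDRL against ED and 0.971 for the interaction. Against replicate 1 of EDRE, which shared its scan time, the EDRL arrays averaged 0.75 higher. Leaving out replicate 2 or 3 of ED or of EDRL ended the first call, at differences between 0.93 and 1.10, and 9 of 12 fits that left out 1 array ended the call of the interaction, at differences between 1.44 and 1.77 or, without replicate 1 of ESRL, of 1.37.

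Igf2 itself was not called after IR on its main probe. In ES cells it differed by 0.15 ± 0.27 at 15 min and -0.05 ± 0.27 at 4 h (limma, adjusted p = 0.982 and 0.938). In ED cells it differed by 0.97 ± 0.26 at 15 min (adjusted p = 0.0408), just under the limit on size, and by 0.30 ± 0.26 at 4 h (adjusted p = 0.70). The other Igf2 probes gave -0.44 and 0.13 for EDRE against ED, each with 1 of 3 EDRE arrays well above background. The 3 probes of the gene differed by up to 3.25 on an EDRE array, against at most 0.74 on an ED array. The median over the probes was -0.26 (adjusted p = 0.568). The main probe did pass both limits in EDRE against ED with median scaling, quantile normalization or the authors' matrix (1.12 each) and with normexp (1.5, adjusted p = 0.0336), and without EDRE replicate 1 (1.27, adjusted p = 9.72e-04). Without the dim replicates 2 and 3 of EDRE it was 0.39 (adjusted p = 0.365), and with scan time as a random block 1.03 (adjusted p = 0.613).

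**Figure D3:**
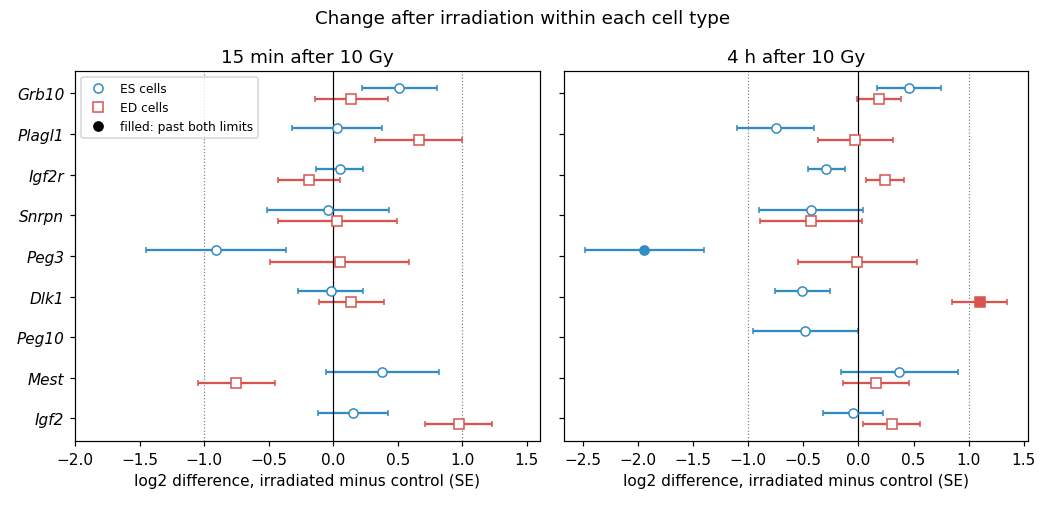
Change after 10 Gy in ES cells (circles) and ED cells (squares), in log2 units relative to the unirradiated group of the same cell type, 15 min (left) and 4 h (right) after IR, for the tested members. Bars are 1 SE, dotted lines mark a change of 1, and filled symbols passed both limits. Only Peg3 in ES cells (-1.94) and Dlk1 in ED cells (1.10) are filled, both at 4 h.

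Imprinted genes lie in clusters, and the neighbors of the members were examined in a list of 40 other imprinted genes, of which 36 had a probe. In EDRL against ESRL, 19 of 30 tested genes fell (24.6% of all tested genes), 2 rose (24.3%) and 9 did not pass, with a median of -3.77 against 0.08 over all tested genes. In EDRE against ESRE 21 of 30 fell (27.6% of all) and 3 rose (18.3%). As for the members, genes dim in ED cells entered through the undifferentiated group. The lowest fitted differences were those of Ddc, which encodes aromatic amino acid decarboxylase and lies beside Grb10 (9.73 ± 0.30 lower, limma, adjusted p = 1.33e-12, with 1 of 3 EDRL arrays well above background), of Cdkn1c, a cyclin-dependent kinase inhibitor (7.91 ± 0.46 lower, adjusted p = 2.22e-08), and of Ppp1r9a, near Peg10 (at least 78.3-fold lower, adjusted p = 5.65e-09, with no EDRL array well above background). These values are thus no ranking of falls: Phlda2, a regulator of placental growth with all 3 EDRL arrays well above background, was 6.92 ± 0.25 lower (adjusted p = 6.24e-12). The genes that rose were Airn, by 2.38 ± 0.37 (adjusted p = 6.86e-05), and Osbpl5, a lipid transfer protein, by 1.78 ± 0.29 (adjusted p = 8.43e-05).

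Neighbors in one cluster did not all pass the limits in EDRL against ESRL. On chromosome 7, Usp29 and Zim1, beside Peg3, were lower by 3.96 ± 0.15 (limma, adjusted p = 1.54e-11, with 1 of 3 EDRL arrays well above background) and at least 12.3-fold (adjusted p = 4.30e-08), and Ndn, in the cluster of Snrpn, fell by 4.31 ± 0.34 (adjusted p = 1.41e-07). On chromosome 12, Meg3, the maternally expressed noncoding RNA next to Dlk1, was at least 61.5-fold lower (adjusted p = 1.24e-08). On chromosome 6, Sgce, which lies head to head with Peg10, differed by -0.59 ± 0.13 (adjusted p = 0.00183), within the limit on size, and Copg2, next to Mest, by -0.56 ± 0.24 (adjusted p = 0.0599).

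The cluster of Grb10 held genes that moved in opposite directions. On chromosome 11, Cobl, an actin nucleator beside Grb10, fell by 4.89 ± 0.25 (limma, adjusted p = 2.16e-09), whereas Grb10 rose. On chromosome 17, Airn is a noncoding RNA that runs opposite to Igf2r across its start, and the strand its probe reads is not given in the sources used here. No probe could be named Magel2, Rian, Mirg or Zdbf2. After IR, 2 of 23 tested genes of the list were called in EDRL against ED (1.6% of all tested genes), Usp29 with a fitted difference of -1.19 ± 0.15 (limma, adjusted p = 3.89e-04), where 1 of 3 EDRL arrays was well above background, and Blcap with 1.06 ± 0.25 (adjusted p = 0.0396). With scan time as a random block both calls were lost (adjusted p = 0.153 and 0.796).

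The partners of Igf2 in IGF signaling were examined in a list of 20 genes. Of 15 tested in EDRL against ESRL, 5 rose (24.3% of all tested genes), 6 fell (24.6%) and 4 did not pass, with a median of 0.21. Igfbp6, Stc2 and Irs1 rose most, by 4.65 ± 0.20 (limma, adjusted p = 1.5e-08), 3.67 ± 0.32 (adjusted p = 1.31e-07) and 3.19 ± 0.34 (adjusted p = 1.14e-06). Igfbp6 binds IGF2 preferentially, Stc2 inhibits the protease that frees IGF from its binding proteins, and Irs1 relays the receptor signal. Igf1r, the receptor that transmits the IGF2 signal, rose by 1.69 ± 0.18 (adjusted p = 1.47e-06). Igfbp2 and Igfbp3, both IGF binding proteins, fell by 12.08 ± 0.25 (adjusted p = 1.54e-13) and at least 325-fold (adjusted p = 6.63e-08), and Igfals, which holds IGF in a circulating complex, was 3.50 ± 0.20 lower (adjusted p = 1.14e-09) with 2 of 3 EDRL arrays well above background. Igf1 was not tested, since its probe was not well above background throughout either group. After IR, Igfbp1 was 1.68 ± 0.43 lower in ESRL than in ES (adjusted p = 0.0281), with 2 of 3 ESRL arrays well above background, and Igfbp2 was 1.41 ± 0.25 higher in EDRL than in ED (adjusted p = 0.00758), where 1 of 3 ED arrays was well above background. Both calls were lost with scan time as a random block (adjusted p = 0.78 and 0.535).

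Factors that maintain imprints were examined in a list of 12 genes. In EDRL against ESRL 5 of the 12 fell (24.6% of all tested genes), 1 rose (24.3%) and 6 did not pass, with a median of -0.52. Dppa3, a maternal factor that protects methylation in the early embryo and a marker of pluripotent cells, was at least 1760-fold lower (limma, adjusted p = 5.07e-12). Zfp57, the zinc finger protein that binds methylated imprinting control regions, was 3.59 ± 0.36 lower with 1 ESRL array in the fit (adjusted p = 2.67e-05). Its spots read from -2.50 to -1.24 on the undifferentiated arrays and from -7.30 to -5.82 on the differentiated ones, without overlap. Ctcfl, a testis relative of the insulator protein CTCF, fell by 2.45 ± 0.46 (adjusted p = 3.07e-04). Zfp445, another imprint-binding zinc finger protein, rose by 1.10 ± 0.40 (adjusted p = 0.0288), but its arrays overlapped. They ran from -2.85 to -1.29 in ESRL and from -1.38 to -1.07 in EDRL. Zfp445 was not called in EDRE against ESRE (0.85 ± 0.45, limma, adjusted p = 0.121), and ED against ES differed by 0.57.

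**Figure D4:**
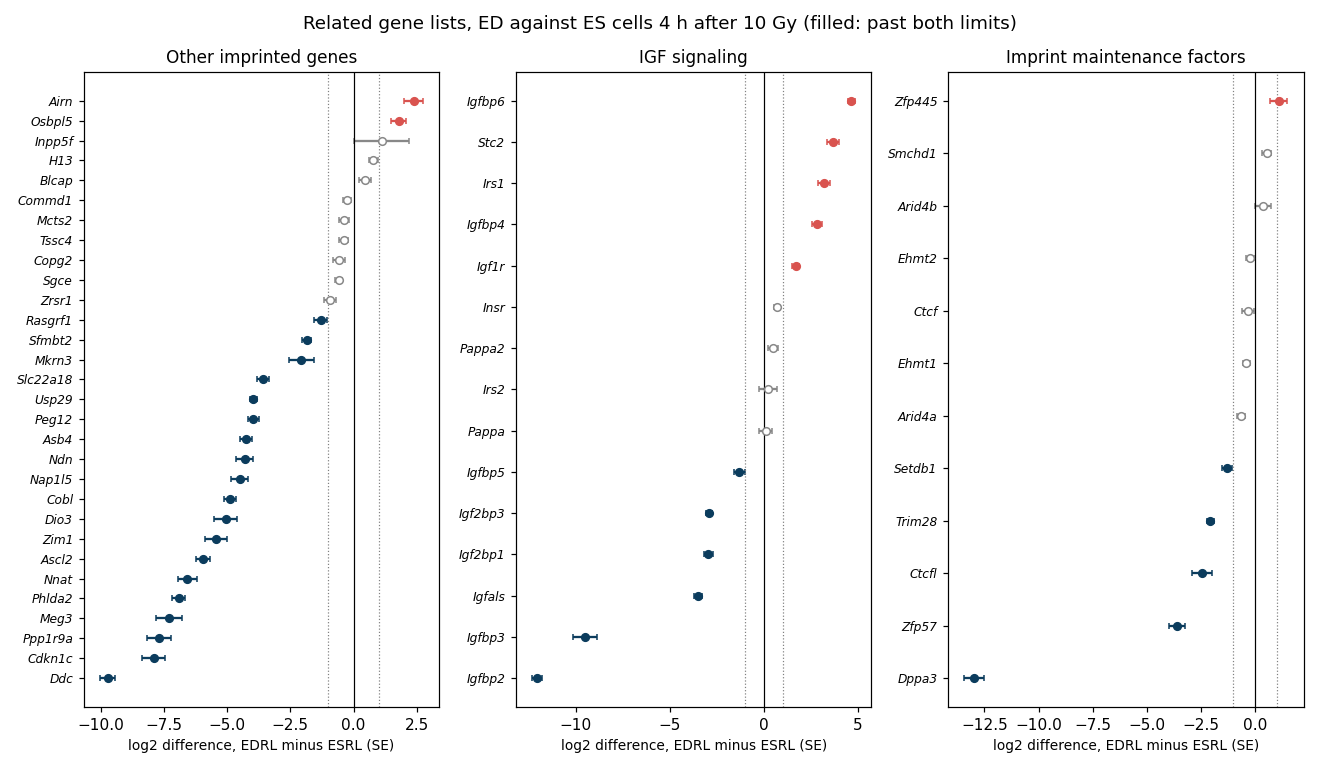
Difference between EDRL and ESRL cells, in log2 units with bars for 1 SE, for the tested genes of 3 related lists, sorted from lowest at the bottom. Filled points passed both limits and dotted lines mark a difference of 1. In the left panel 19 of 30 imprinted genes lie below with filled points. In the right panel Dppa3 stands far below the others by its fitted difference, with no EDRL array well above background. The positions and bars of such genes, among them Meg3, Zim1, Ppp1r9a and Igfbp3, are fitted values of uncertain size.

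RefSeq start sites of the members were searched for the letters TGCCGC on either strand, the core sequence that ZFP57 recognizes when it is methylated. Windows of 250 bases before to 50 bases after the start (GRCm38.p6) were at hand for 8 members, 17 windows in all, and 6 of them held the letters, against 11.6% of 32851 windows of all genes. Of these 6, both of Mest overlap almost fully and count as the same stretch. A match is a description of the letters and not a site. The windows that held a match follow in lower case with the match in capitals, which reads GCGGCA where it lies on the opposite strand, since they include members that fell (Igf2, Mest, Snrpn), rose (Grb10) and stayed within the limit (Plagl1). Beyond the overlapping Mest window, the remaining windows of these genes and those of Igf2r, Peg3 and Dlk1 held no match.
Igf2 (chr7:142661222-142661521, - strand): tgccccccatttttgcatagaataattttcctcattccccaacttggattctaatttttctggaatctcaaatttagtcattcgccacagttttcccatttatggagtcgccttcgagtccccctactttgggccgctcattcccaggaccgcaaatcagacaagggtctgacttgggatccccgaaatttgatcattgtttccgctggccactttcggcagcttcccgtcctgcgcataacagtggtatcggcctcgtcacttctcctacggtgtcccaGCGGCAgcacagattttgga
Mest (chr6:30737800-30738099, + strand): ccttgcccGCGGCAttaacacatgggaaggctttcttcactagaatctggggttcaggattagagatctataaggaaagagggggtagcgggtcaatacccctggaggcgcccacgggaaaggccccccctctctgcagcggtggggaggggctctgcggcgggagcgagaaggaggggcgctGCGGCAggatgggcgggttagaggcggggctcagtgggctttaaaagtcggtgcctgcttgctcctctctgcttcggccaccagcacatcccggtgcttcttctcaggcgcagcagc
Grb10 (chr11:12037371-12037670, - strand): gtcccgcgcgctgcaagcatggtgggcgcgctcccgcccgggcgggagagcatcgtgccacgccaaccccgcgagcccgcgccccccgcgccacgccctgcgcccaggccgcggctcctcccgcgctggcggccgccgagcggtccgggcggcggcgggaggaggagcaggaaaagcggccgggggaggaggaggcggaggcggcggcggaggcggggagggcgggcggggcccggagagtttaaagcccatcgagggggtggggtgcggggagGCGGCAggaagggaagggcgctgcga
Plagl1 (chr10:13090582-13090881, + strand): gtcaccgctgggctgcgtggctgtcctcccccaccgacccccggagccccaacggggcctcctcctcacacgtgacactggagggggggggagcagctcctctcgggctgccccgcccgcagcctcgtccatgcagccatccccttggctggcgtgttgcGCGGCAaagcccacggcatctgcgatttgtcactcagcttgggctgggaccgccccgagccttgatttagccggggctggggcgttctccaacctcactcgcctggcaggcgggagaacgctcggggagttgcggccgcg
Snrpn (chr7:60005150-60005449, - strand): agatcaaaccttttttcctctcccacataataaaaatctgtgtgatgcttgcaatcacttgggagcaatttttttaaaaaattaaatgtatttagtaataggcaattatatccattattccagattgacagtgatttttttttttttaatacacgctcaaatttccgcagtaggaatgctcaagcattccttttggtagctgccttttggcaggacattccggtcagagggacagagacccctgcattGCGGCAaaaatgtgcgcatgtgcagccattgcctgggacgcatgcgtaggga

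These windows differed in their content of the CG dinucleotide, the target of DNA methylation. The Grb10 window held 45, more than 98.1% of all windows had, and the Snrpn window held 7, equal to the median of 7 over all windows. Igf2 had 14, Mest 17 and Plagl1 26 in the windows shown.

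The genes whose signal followed that of Igf2 most closely over the 18 arrays were Pigp, Zscan4d, Krt8, a transcript listed as EF143406 and Tex14, with Pearson correlations from 0.9986 to 0.9993. Among the members the correlation with Igf2 was 0.99 for Mest and Peg10, 0.98 for Dlk1, 0.91 for Peg3 and Snrpn, -0.96 for Grb10, -0.71 for Igf2r and -0.52 for Plagl1. These values are descriptions over arrays that share the same split between 2 cell types. Over the 9 undifferentiated arrays alone, the correlation with Igf2 was 0.83 for Igf2r, 0.73 for Dlk1, 0.63 for Plagl1 and 0.51 for Mest and Grb10. It was 0.44 for Snrpn, 0.35 for Peg3 and -0.28 for Peg10. The sign thus changed for Igf2r, Plagl1, Grb10 and Peg10.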

How the data were processed

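RNA of 18 samples was hybridised by the authors to 1 one-color (Cy3) Agilent array each and read with Agilent Feature Extraction (9.1 in the submitters' processing notes, 10.7.3.1 in the file header). The deposited scanner files give an intensity per spot, already corrected for background by that software. The deposited series matrix holds the authors' log2 values. Set against the scanner files it is the log2 processed signal, with a floor at 5, minus about the array's median, with column medians of 0.572 to 0.721, and how it was made is not given in the sources used here.

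Here, control spots and outlier spots were left out, and log2 of the processed intensity was taken relative to each array's 75th percentile. Spots of a probe were averaged. Probes were named through RefSeq accessions, and a gene was read on its brightest probe (highest mean over the 18 arrays), with other probes given beside it. A probe entered the test if, in 1 or more of the groups compared, every array had at least 50% of its spots well above background. Group means over the 18 arrays were fitted with limma 3.58.1 (R 4.3.3), and p-values were adjusted over all tested probes by Benjamini-Hochberg. Calls needed an adjusted p under 0.05 and a log2 difference over 1. The code was tested on simulated data with known changes. With 3 arrays per group, their number limits the precision.

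No scan time held a group together with its own control, so scan time entered only as a random block. Named genes were the members, the 3 highest and 3 lowest calls of each related list in EDRL against ESRL, fixed neighbors of the members, and the 5 genes most correlated with Igf2. Genes called after IR or in a count of 5 or fewer (Blcap, Igfbp1), Phlda2 and the cell type markers singled out were named after their values were seen. The members and lists were chosen with earlier results of these data known. The normexp alternative was run on the median spot signal. Alternatives tried were scaling, background correction, outlier spots, the filter on dim probes, the authors' matrix, scan time or replicate number as a block, the arrays fitted, the methods' t-test, the limit on size, the rule for probes, and leaving out arrays.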

Additional observations from a re-analysis of the deposited data

Results flagged for a closer look

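The change in Dlk1 at 4 h after IR differed between the cell types, with a difference of 1.61 on the log2 scale between the change in ED cells and the change in ES cells (limma interaction, adjusted p = 0.0443). It fell short of the adjusted p with scan time as a random block, where it was 1.64 (adjusted p = 0.971).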

How the results depend on the processing

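Of 236 counts of members under the alternatives, 172 stayed within 1.5 times the reported count. The count of members lower in ED cells did so in ED against ES and EDRL against ESRL under every alternative tried (5 to 6 and 4 to 6), and in EDRE against ESRE under all but the filter that required signal on every array of both groups, which leaves 1 because the dim EDRE arrays fail it. The count of higher members (1 as reported) was 2 in ED against ES with median scaling or the authors' matrix, and 0 to 1 without 1 array, since Grb10 has 1 usable ES array. In EDRE against ESRE it was 3 with median scaling or the authors' matrix, 2 with no limit on size and 0 by the methods' t-test. In EDRL against ESRL it was 3 with median scaling, normexp, the authors' matrix or no limit on size, 2 with quantile normalization or scan time as a random block, and 1 to 3 without 1 array (3 without replicate 2 or 3 of ESRL).

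The calls after IR were weaker. The single call in ESRL against ES went to 0 with normexp, with no filter or the strict filter, with the authors' matrix, with scan time as a random block, with only the compared groups fitted, by the methods' t-test, without the 3 dim or lone arrays, and to 0 to 1 without 1 array. The call in EDRL against ED went to 0 with normexp, no filter, scan time as a random block, the replicate block or the methods' t-test, and to 0 to 1 without 1 array. The call of the interaction at 4 h went to 0 with median scaling, normexp, outlier spots kept, no filter, the authors' matrix, scan time as a random block or the replicate block, and to 0 to 1 without 1 array. In EDRE against ED, 1 member was called with median scaling, quantile normalization, no filter, the authors' matrix or no limit on size (Igf2 in each of these but the fit with no filter), 2 with normexp, and 0 to 3 without 1 array (3 without replicate 1 of EDRE). In the interaction at 15 min, 1 was called with outlier spots kept or with the authors' matrix, and 0 to 3 without 1 array (3 without replicate 1 of EDRE). The cause of these moves was not tested.

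Values that turned sign were Plagl1 in EDRE against ESRE, -0.15 without the 3 dim or lone arrays, and Igf2 in EDRE against ED, -0.26 as the median over its probes. Replicate numbers did not pair the samples (correlations of deviations between arrays of the same number of -0.37 to 0.30, median -0.01). With the replicate block, Dlk1 was 1.10 (adjusted p = 0.0545) in EDRL against ED and 1.61 (adjusted p = 0.0834) in the interaction, and no other call of a member changed. Genes called over the whole array in the interaction at 4 h went from 288 to 172 with the replicate block, and to 1 with scan time as a random block (from 507 to 0 at 15 min). At a p under 0.05 without a limit on size, the methods' t-test passed 5 of 6 members in EDRE against ESRE (7520 of 16250 genes). In EDRL against ESRL it passed 7 of 7 (13125 of 22947 genes). After Benjamini-Hochberg 4 and 6 of these members passed, and no share over all genes is at hand for that limit. Nothing is read from these counts. The t-test could not be run for interactions. Arrays of the same scan time correlated at 0.67 in their deviations. Dim spots on replicates 2 and 3 of EDRE limit what can be said of low members there.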
